A study of Mus musculus with 30 samples.

Results

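The question here was how the difference between the healing fracture calli of diet-induced obese (DIO) and lean (Lean) mice changed from d7 to d10 after fracture. It was asked of every gene as the log2 difference between DIO and Lean calli on d10 less the same difference on d7, so that a negative value means that DIO calli lost expression relative to Lean calli over these days. The 4 groups that enter it hold 12 of the 30 RNA-seq libraries of the series, 3 mice per group and 1 callus per library. All mice were male C57BL/6J mice aged 20 weeks at fracture. Lean mice were kept on a low-fat control diet and DIO mice on a high-fat diet that began before purchase and went on until harvest, so obesity here is the diet's and no gene was altered. Each mouse received an open tibial fracture of the right hindlimb stabilized with an intramedullary nail, and whole-callus RNA was sequenced, so fewer cells of a type and less RNA per cell cannot be told apart.

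A tibial fracture of this kind heals through a cartilage template. Early leukocytes clear the wound, progenitors become chondrocytes that fill the gap with a matrix of type II collagen and the sulfated proteoglycan aggrecan in tissue that is poor in oxygen, and the matrix is then calcified, resorbed by osteoclasts and replaced with bone. Macrophage genes and adipocyte genes report other cells that share the callus during these steps, while interferon-response genes report a response and not a cell type.

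The tissue identity was in the data. The cartilage genes Col2a1 and Acan, the bone genes Col1a1, Sp7 and Ibsp, and the leukocyte gene Ptprc had reads in all 12 libraries. Total counts ran from 13247122 to 20489678 per library. One library stood apart: on the first principal component, which held 28.7% of the variance, Lean d10 replicate 1 was at 102.7 and the other 11 libraries lay between -40.5 and 58.0. This library was high in cartilage genes and low in muscle, erythroid and B-lineage genes, and the counts and calls lost without it are given below.

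Between d7 and d10 the diet difference changed for a broad set of genes. In edgeR's quasi-likelihood test 883 of 17057 genes, or 5.18%, had a diet difference that changed at an adjusted p below 0.05. For 584 genes (3.42%) the difference fell and for 299 (1.75%) it rose, while the median over all genes tested was 0.02. Of the 584 that fell, 580 were above Lean on d7 and below it on d10 in the fit, and for 290 of the 299 that rose the order was the opposite. These are signs of estimates. The genes were picked by the difference between the same d7 and d10 estimates, which favours opposite signs, so the order adds no evidence for the change. The size of the difference was larger on d7 for 366 of the 584 and 250 of the 299. The 3 DIO values were all above the 3 Lean values on d7 and all below them on d10 for 253 of the 584, a pattern held by 320 genes (1.88%) of all those tested. The reverse pattern was held by 83 of the 299 and by 175 genes (1.03%) of all tested.

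**Figure D1:**
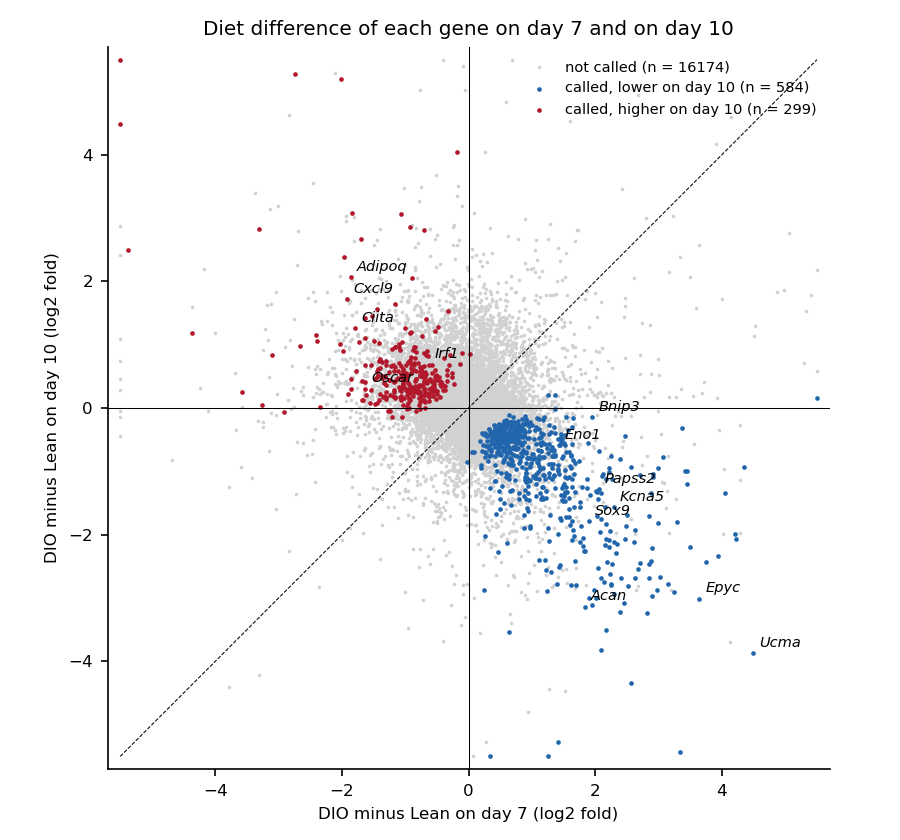
Each point is 1 of 17057 genes, with the log2 difference of DIO from Lean calli on d7 on the horizontal axis and on d10 on the vertical axis, and genes whose difference changed are coloured. Values beyond the plotted range are drawn at its edge. The 584 genes that fell lie almost all on the side that is positive on d7 and negative on d10, with Ucma and Epyc far out. The 299 that rose lie mostly on the opposite side. Picking genes by the change favours both placings.

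Over time the estimates of the diets ran in opposite directions for most of these genes. From d7 to d10, edgeR called 1608 genes (9.43%) in Lean calli, 773 (4.53%) up and 835 (4.9%) down, and 2289 genes (13.4%) in DIO calli, 1086 (6.37%) up and 1203 (7.05%) down. Of the 584 genes that fell, 508 had a positive Lean estimate and a negative DIO estimate from d7 to d10, with median log2 changes of 0.53 in Lean calli and -1.28 in DIO calli. The change with time passed the test in DIO calli for 430 of them, in Lean calli for 122 and in both, in opposite directions, for 30. Of the 299 that rose, 212 had a negative Lean and a positive DIO estimate, with medians of -0.50 and 0.91. These time estimates use the same 12 libraries as the change itself and describe it without adding evidence for it.

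Tested by itself, the d7 diet difference was called for 660 genes (3.87%), 366 (2.15%) higher and 294 (1.72%) lower in DIO calli. On d10 edgeR called 0 genes, with 2272 at an unadjusted p below 0.05 and a smallest adjusted p of 0.0836, and DESeq2 called 195, of which 163 were lower and 32 higher in DIO calli. Leaving out Lean d10 replicate 2 or replicate 3 gave 111 or 273 calls on d10, and leaving out DIO d10 replicate 1 gave 1. The DIO values of d10 given below are therefore levels beside Lean levels, and no gene's d10 difference passed the edgeR test alone.

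Cartilage matrix genes had the most negative median of the 29 gene lists described here. Of 28 tested, 20 fell, 8 were not called and 0 rose, with a median change of -4.10 against 0.02 over all genes. The list's median log2 difference of DIO from Lean calli was 1.65 on d7 and -2.56 on d10, with medians over time of 1.54 in Lean and -2.75 in DIO calli. The count that fell depended on single libraries: it was 7 without Lean d10 replicate 1, 7 without Lean d7 replicate 2, 9 without DIO d10 replicate 1, 11 without Lean d7 replicate 1 and 4 with the 12 libraries fitted alone, while the median stayed between -5.00 and -3.08 with any 1 library left out.

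Acan (chr7:79053483-79115099), which encodes aggrecan, the main proteoglycan of cartilage, was at 602, 460.2 and 1507 CPM (counts per 1000000 counts of the library, TMM-normalized) in Lean and at 3100.5, 2276 and 3810 CPM in DIO calli on d7. On d10 it was at 6393, 1138 and 1019 CPM in Lean and at 159, 468 and 346 CPM in DIO calli. The DIO mice were thus all above the Lean mice on d7 and all below them on d10, although Lean d10 replicate 1 was over the other Lean values by a wide margin. The diet difference of Acan fell by 4.97 on the log2 scale (SE 1.00, adjusted p = 0.0111), and by 3.57 without that library (adjusted p = 0.0344).

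Ucma (chr2:4976122-4985748), a small secreted protein of the upper growth-plate and resting cartilage, showed the steepest change among cartilage genes. On d7 it was at 6.01, 7.97 and 14.3 CPM in Lean and at 174, 194 and 266 CPM in DIO calli, and on d10 at 171, 40.0 and 22.3 CPM in Lean and at 0.306, 8.55 and 7.02 CPM in DIO calli. Lean and DIO values were apart on both days, in opposite order. Its change was -8.35 (SE 1.28, adjusted p = 0.00335), and -7.03 without Lean d10 replicate 1 (adjusted p = 0.00606).

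Collagen genes of cartilage changed in the same direction. Col2a1, the fibril-forming collagen of cartilage, was at 3192, 2186 and 9544 CPM in Lean and 21823, 9477 and 26453 CPM in DIO calli on d7, and at 46755, 8799 and 7078 CPM against 1182, 4032 and 2014 CPM on d10. The groups overlapped on d7 through Lean d7 replicate 3 and DIO d7 replicate 2, and did not on d10. Its change of -5.07 (adjusted p = 0.0294) became -3.67 (adjusted p = 0.121) without Lean d10 replicate 1.

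Other called matrix genes changed in the same direction. The type IX collagen genes Col9a1, Col9a2 and Col9a3, which coat type II fibrils, changed by -4.89, -5.00 and -5.61. Matn3, a matrilin that links collagen and proteoglycan, changed by -5.53, Hapln1, the link protein of aggrecan and hyaluronan, by -4.85, and Comp, a pentameric matrix glycoprotein, by -3.93. Epyc, a small leucine-rich proteoglycan of epiphyseal cartilage, changed by -6.65, and 40.6% of its exons lie under the gene Gm10754 on the opposite strand. Fmod, a related proteoglycan that binds collagen, changed by -2.25 from a d7 gap of 1.19. Without Lean d10 replicate 1, Col9a3, Epyc and Fmod were called, and Col9a1, Col9a2, Matn3, Hapln1 and Comp were not (adjusted p 0.0798, 0.0770, 0.0649, 0.126 and 0.0773).

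Col10a1, the collagen of hypertrophic chondrocytes, was not called. It was at 897, 663 and 2403 CPM in Lean and 5624, 1432 and 1654 CPM in DIO calli on d7, and at 12022, 3504 and 4591 CPM against 928, 1882 and 1385 CPM on d10. The groups overlapped on d7 and were apart on d10, and the change was -3.40 (SE 1.54, adjusted p = 0.198).

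Genes that direct chondrocytes shifted in the same direction. Of 23 tested transcription factors, growth signals and hypertrophy genes, 11 fell and 0 rose, with a median of -1.77. The count was 3 without Lean d10 replicate 1, 5 to 7 without any 1 of Lean d7 replicates 1 and 2, DIO d7 replicates 1 and 2 and the 3 DIO d10 replicates, and 3 with the 12 libraries alone. Sox9 (chr11:112782224-112787760), the transcription factor that specifies chondrocytes, was at 31, 20.9 and 74.0 CPM in Lean and 148, 159.8 and 164 CPM in DIO calli on d7, and at 133, 32.9 and 36.6 CPM against 12.7, 26.7 and 19 CPM on d10. DIO calli were uniformly high on d7 and all below Lean calli on d10, with a change of -3.69 (SE 0.74, adjusted p = 0.0108) that was -2.74 without Lean d10 replicate 1 (adjusted p = 0.0312). Sox5, which works with Sox9, changed by -2.48 (adjusted p = 0.0566 without that library).

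Other signalling and regulatory genes of chondrocytes were also among the called genes. Gdf5, a BMP-family ligand of joint and callus cartilage, changed by -4.74, with 40.3% of its exons under Gm15557 on the other strand. The receptor genes Fgfr3, which restrains chondrocyte growth, and Pth1r, the receptor of parathyroid hormone-related protein, changed by -1.77 and -2.14. Wwp2, a ubiquitin ligase gene that hosts the cartilage microRNA gene Mir140 on its own strand, changed by -2.87. Foxa2 and Foxa3, transcription factors of chondrocyte hypertrophy, changed by -4.18 and -4.01, and Nkx3-2, a repressor of hypertrophy, by -4.55. Without Lean d10 replicate 1, Gdf5 and Wwp2 were called, and Fgfr3, Pth1r, Foxa2, Foxa3 and Nkx3-2 were not (adjusted p 0.123, 0.187, 0.192, 0.135 and 0.0925).

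Enzymes and transporters that build and sulfate cartilage sugar chains fell too. Of 24 tested glycosaminoglycan genes 11 fell and 0 rose (median -0.85), and 9 of the 24 were called higher in DIO calli on d7. The count that fell was 5 without Lean d10 replicate 1, and 6 or 7 without any 1 of Lean d7 replicates 1 and 2 and the 3 DIO d10 replicates. Papss2 (chr19:32595790-32667187), which makes the sulfate donor for proteoglycans, was at 49.2, 46.9 and 103 CPM in Lean and 277, 306 and 245 CPM in DIO calli on d7, and at 198, 65.4 and 76.4 CPM against 39.8, 46.2 and 53.9 CPM on d10. Its groups were apart in opposite order on the 2 days, with a change of -3.33 (SE 0.56, adjusted p = 0.00369), and -2.66 without Lean d10 replicate 1 (adjusted p = 0.00611).

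Csgalnact1, which starts chondroitin chains, was at 21.8, 12.6 and 30.9 CPM in Lean and 62.5, 92.7 and 49.2 CPM in DIO calli on d7, and at 24.5, 13.5 and 14.0 CPM against 11.7, 8.99 and 8.92 CPM on d10. Here the Lean level was not called as changed between the days (log2 -0.33, adjusted p = 0.464) and the DIO level fell by 2.79 (adjusted p = 1.4e-06), for a change of -2.46 (adjusted p = 0.00292). Slc26a2, the sulfate transporter of chondrocytes, changed by -2.44, Ugdh, which makes UDP-glucuronate, by -1.87, and Slc35d1, which carries UDP-sugars into the endoplasmic reticulum, by -2.10. Has2, the hyaluronan synthase, changed by -2.50 (adjusted p = 0.0531 without Lean d10 replicate 1).

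Fibrous and provisional matrix genes also fell where they were called. Of 28 tested, 9 fell, 19 were not called and 0 rose, with a median of -0.70. The count was 5 without Lean d10 replicate 1, DIO d7 replicate 2 or DIO d10 replicate 1, and 4 without Lean d7 replicate 2 or with the 12 libraries alone. Fn1 (chr1:71585520-71653200), which encodes fibronectin, the scaffold of early wound matrix, was at 2448, 2161 and 3115 CPM in Lean and 6976, 10648 and 8977 CPM in DIO calli on d7, and at 10725, 2924 and 4138 CPM against 1911, 2834 and 2776 CPM on d10. Every DIO callus was above every Lean callus on d7 and below on d10, and the change of -3.03 (SE 0.47, adjusted p = 0.00292) was -2.28 without Lean d10 replicate 1 (adjusted p = 0.00118).

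The chains of type VI collagen, a filament around cells, changed by -2.26 (Col6a1), -2.24 (Col6a2) and -1.41 (Col6a3). The collagen-processing enzymes Loxl2, a crosslinking oxidase, and Plod2, a lysyl hydroxylase, changed by -1.60 and -1.69, and Col3a1, the collagen of granulation tissue, by -1.27. Col6a3 and Col3a1 were not called without Lean d10 replicate 1 (adjusted p 0.174 and 0.0683). Col1a1, the main collagen of bone, showed no such change. It was at 26903, 31978 and 32482 CPM in Lean and 27072, 15922 and 28357 CPM in DIO calli on d7, and at 52851, 32565 and 43972 CPM against 37780, 33708 and 28573 CPM on d10, with overlap on both days and a change of -0.01 (SE 0.40, adjusted p = 0.988).

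**Figure D2:**
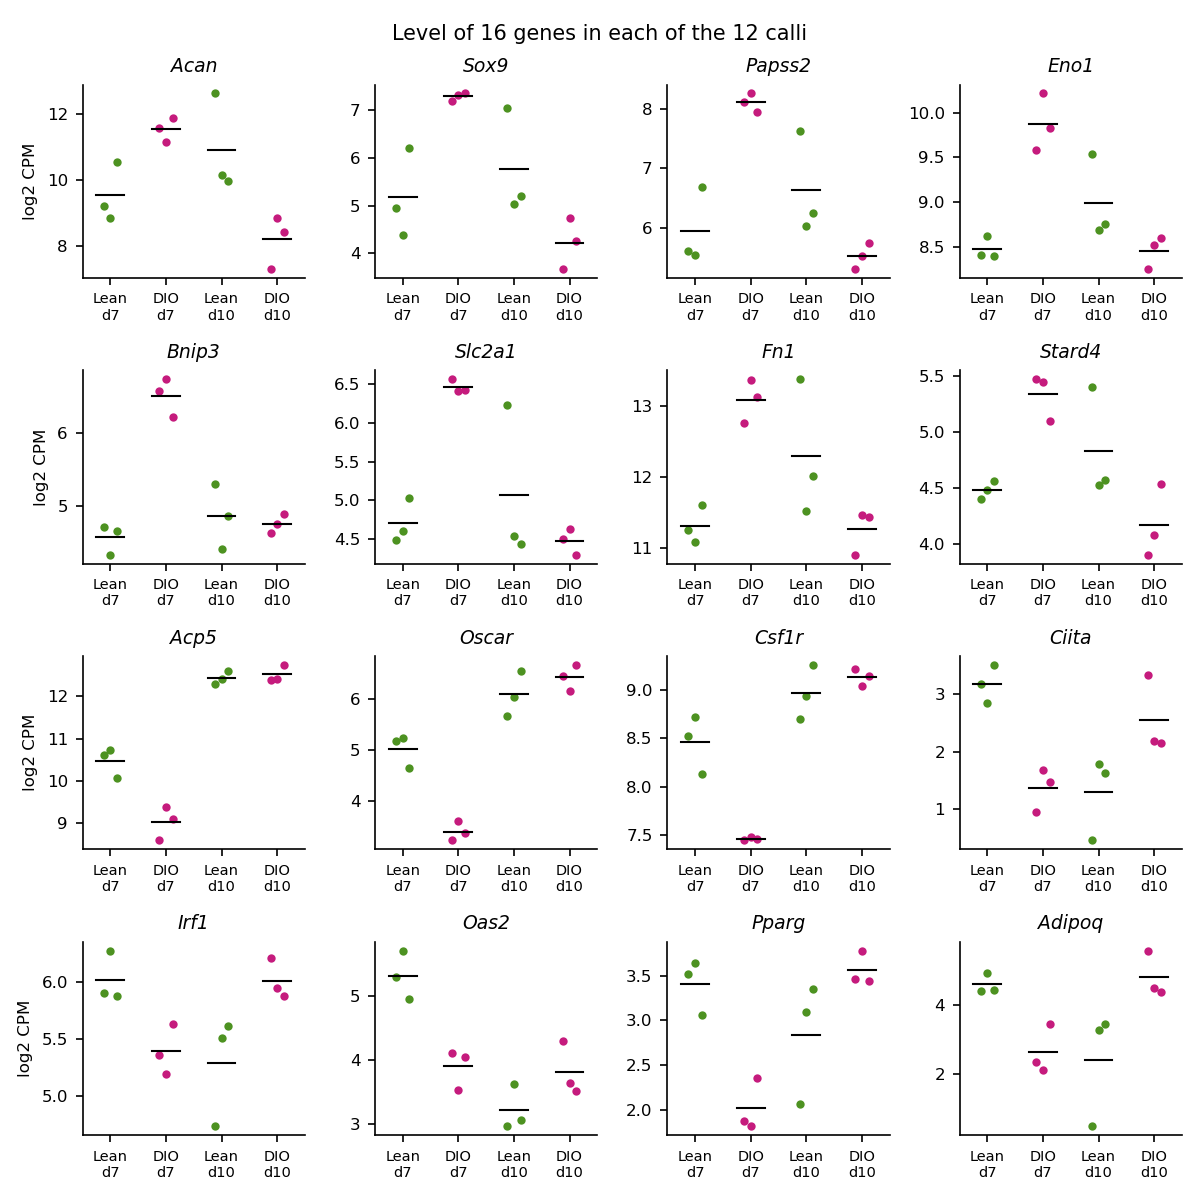
Each panel plots 1 gene of 16, with log2 CPM on the vertical axis, a point per callus and a bar at each group's mean for Lean d7, DIO d7, Lean d10 and DIO d10. Acan, Sox9, Papss2, Eno1 and Slc2a1 have their highest group mean in DIO calli on d7, and Acp5, Oscar and Csf1r stand lowest there.

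Glycolysis and hypoxia genes were another list that fell where called, and their shift was mostly a d7 difference that closed by d10 in the list's median. Of 29 tested, 12 fell, 17 were not called and 0 rose (median -1.03), and 18 were called higher in DIO calli on d7. The median diet difference was 0.91 on d7 and -0.07 on d10. Summed CPM of the list, which weights abundant genes most, was higher in DIO calli on d10, at 9217 to 11812 against 7757 to 8030.5 in Lean calli. The mean log2 CPM of the same genes was not, at 6.15 to 6.28 in DIO and 6.08 to 6.58 in Lean calli. The count of genes that fell stayed between 11 and 13 whichever of the 12 libraries was left out, and was 11 without Lean d10 replicate 1.

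Promoter sequences are shown for the pair of called glycolysis and hypoxia genes with the smallest p whose window holds the core of the hypoxia-response element, ACGTG or GCGTG, in capitals on either strand. Hypoxia-inducible factors bind this core, and Eno1 and Bnip3 are classic genes of that response. Each window, taken from RefSeq on GRCm38.p6, runs from 250 bases before the annotated start to 50 after and reads 5′ to 3′ on the gene's strand. It lies at chr4:150236458-150236757 on the plus strand for Eno1, and at chr7:138909457-138909756 on the minus strand for Bnip3.
Eno1: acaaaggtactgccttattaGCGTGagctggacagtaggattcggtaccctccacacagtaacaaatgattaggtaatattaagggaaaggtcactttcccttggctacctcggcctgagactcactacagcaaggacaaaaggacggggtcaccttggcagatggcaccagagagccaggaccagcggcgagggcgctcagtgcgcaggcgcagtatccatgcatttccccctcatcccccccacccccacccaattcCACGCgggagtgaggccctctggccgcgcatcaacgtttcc
Bnip3: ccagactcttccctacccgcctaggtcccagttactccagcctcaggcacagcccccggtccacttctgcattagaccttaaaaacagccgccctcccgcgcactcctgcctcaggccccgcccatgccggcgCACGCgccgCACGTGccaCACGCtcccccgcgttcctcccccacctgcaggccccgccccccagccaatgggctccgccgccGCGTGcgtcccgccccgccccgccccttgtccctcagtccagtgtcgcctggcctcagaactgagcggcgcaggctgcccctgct
The core occurred 2 times in the Eno1 window and 5 times in the Bnip3 window, where cores on opposite strands overlap. It is a short and common motif, present in 11836 of 27025 promoter windows (43.8%) and in 7256 of the 12101 windows of tested genes (60.0%). It was present in 292 of the 440 windows found for genes that fell (66.4%), in 109 of 229 for genes that rose (47.6%) and in 12 of 12 for the called glycolysis and hypoxia genes. A match describes the letters only.

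Eno1 (chr4:150236721-150248879), the glycolytic enolase, was at 341, 392 and 336 CPM in Lean and 765, 1190 and 912 CPM in DIO calli on d7, and at 740.3, 411 and 433 CPM against 304, 367 and 388 CPM on d10. DIO calli were above Lean calli on d7 without overlap and just below them on d10. Its change was -2.0 (SE 0.28, adjusted p = 0.00275), the smallest p of the list, and -1.68 without Lean d10 replicate 1 (adjusted p = 0.000957). Eno1b, a near-identical copy of this gene that can share its reads, changed by -1.95 (adjusted p = 0.0117), so the split between the copies is uncertain.

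Bnip3, a mitophagy receptor gene induced in low oxygen, was at 26.4, 20.2 and 25.2 CPM in Lean and 95.5, 107 and 74.5 CPM in DIO calli on d7, and at 39.6, 21.3 and 29.2 CPM against 24.7, 27 and 29.6 CPM on d10. DIO calli were clear of Lean calli on d7 and mixed with them on d10, and 22.3% of its exons lie under Gm45507 on the other strand. The change was -2.10 (SE 0.31, adjusted p = 0.00292).

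Slc2a1 (chr4:119108711-119137983), the glucose transporter GLUT1, was at 22.4, 24.3 and 32.6 CPM in Lean and 94.6, 85.4 and 85.4 CPM in DIO calli on d7, and at 75.2, 23.2 and 21.6 CPM against 22.7, 24.9 and 19.7 CPM on d10. All DIO values of d7 were high and 1 Lean value of d10, that of replicate 1, joined them. Its change was -2.58 (SE 0.46, adjusted p = 0.00515) and -1.75 without that library (adjusted p = 0.00118). The same direction held for the phosphofructokinase genes Pfkl (-2.30) and Pfkp (-1.61), for the mutase Pgam1 (-1.43), the aldolase Aldoc (-2.41), the lactate exporter Slc16a3 (-1.17) and the kinase Pgk1 (-1.04).

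Hypoxia-responsive genes outside glycolysis were also called. Adm, the vasodilator peptide adrenomedullin, changed by -2.71, P4ha2, a collagen prolyl hydroxylase, by -1.92, and Car9, a membrane carbonic anhydrase, by -2.91 (adjusted p = 0.164 without Lean d10 replicate 1).

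Cholesterol synthesis genes leaned one way as a list. All 22 tested had negative estimates, 8 fell and 14 were not called, with a median of -0.97. The median diet difference was 0.34 on d7 and -0.57 on d10. Stard4 (chr18:33199355-33213862), which carries cholesterol between membranes, was at 21.1, 22.4 and 23.6 CPM in Lean and 44.5, 43.7 and 34.3 CPM in DIO calli on d7, and at 42.3, 23.1 and 23.8 CPM against 14.9, 16.9 and 23.2 CPM on d10. Its groups were apart on d7 and overlapped slightly on d10, with a change of -1.57 (adjusted p = 0.00581).

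Along the pathway, Fdps, which makes farnesyl pyrophosphate, changed by -1.52, and Sqle and Lss, which oxidize and cyclize squalene, by -1.66 and -1.46. Cyp51, a sterol demethylase, changed by -1.61, and Sc5d, a sterol desaturase, by -1.21. Lean d10 replicate 1 was the highest Lean value of d10 for each of them, and without it 2 of the 22 were called, with none of these 5 among them (adjusted p 0.113 to 0.204), and the median was -0.62. Leaving out 1 of the other libraries gave 2 to 5 calls for 8 of them, with 2 for Lean d7 replicate 2 and DIO d10 replicate 1.

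Of 30 tested genes of the secretory pathway and endoplasmic reticulum stress, 5 fell and 0 rose (median -0.52). They were Creb3l2, a transcription factor of secretory load in chondrocytes (-1.27), Creld2, a stress-induced chaperone partner (-1.25), Trib3, a stress pseudokinase (-1.91), P4hb, protein disulfide isomerase (-1.08), and Calr, calreticulin (-0.92). Creb3l2 and Creld2 were called without Lean d10 replicate 1. The count was also 2 without Lean d7 replicate 2 or DIO d10 replicate 1, 3 without DIO d7 replicate 2 and 1 with the 12 libraries, against 9 or 10 without DIO d7 replicate 3 or Lean d10 replicate 2 or 3.

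Osteoclast genes mostly moved the other way. Of 24 tested, 12 rose, 12 were not called and 0 fell, with a median change of 0.87. Estimates were positive for 20 and negative for 4, down to -1.97, and 2 were lower at an unadjusted p below 0.05 in edgeR. DESeq2 called 12 higher and 2 lower, and edgeR without Lean d10 replicate 2 called 10 higher and 2 lower. The list was lower in DIO calli on d7, where 13 genes were called lower (median -0.76), and near Lean on d10 (median 0.07), with median changes over time of 0.96 in Lean and 1.72 in DIO calli.

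Acp5 (chr9:22126727-22135711), tartrate-resistant acid phosphatase, the classic osteoclast enzyme, was at 1570, 1706 and 1077 CPM in Lean and 384, 661 and 547 CPM in DIO calli on d7, and at 5024, 5448 and 6219 CPM against 5349, 5480 and 6877 CPM on d10. DIO calli were below Lean calli on d7 without overlap and among them on d10. The change was 1.54 (SE 0.31, adjusted p = 0.00838), and the DIO level rose by 3.48 between the days (adjusted p = 2.1e-08) while the Lean level rose by 1.94 (adjusted p = 0.00012).

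Oscar (chr7:3609813-3616157), a collagen receptor that costimulates osteoclast formation, was at 35.8, 37.6 and 24.9 CPM in Lean and 9.28, 12.2 and 10.2 CPM in DIO calli on d7, and at 50.6, 65.9 and 94.0 CPM against 87.3, 71.0 and 102 CPM on d10. Again the groups were apart on d7 and overlapped on d10. Its change was 1.94 (SE 0.32, adjusted p = 0.00292), and 1.75 without Lean d10 replicate 1 (adjusted p = 0.00611).

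Fusion, acid secretion and matrix breakdown were all represented among the called genes. Dcstamp and Ocstamp, membrane proteins needed for fusion, changed by 1.83 and 0.92. Ckb, the creatine kinase that fuels resorption, changed by 1.81, and the proton pump subunits Atp6v0d2 and Atp6v1c1 by 1.44 and 0.75. Clcn7 and its partner Ostm1, the chloride transporter of the resorbing membrane, changed by 0.79 and 0.87, and Snx10, a sorting nexin required for resorption, by 1.33. Ctsk, the collagen-degrading cathepsin, changed by 1.43, and Mmp9, a gelatinase that neutrophils also hold, by 1.22. Without Lean d10 replicate 1, 5 of the 24 were called (Acp5, Oscar, Ckb, Dcstamp and Snx10) with a median of 0.78, and 6 or 7 were without Lean d7 replicate 2 or DIO d10 replicate 1.

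Of 28 macrophage genes tested 4 rose and 0 fell (median 1.00). Csf1r (chr18:61100598-61132149), the receptor of macrophage colony-stimulating factor, which osteoclast precursors also carry, was at 369, 423 and 279 CPM in Lean and 174, 178 and 175 CPM in DIO calli on d7, and at 415, 491 and 615 CPM against 596, 527 and 569 CPM on d10. DIO calli were below on d7 and overlapped Lean calli on d10, with a change of 1.18 (SE 0.26, adjusted p = 0.0128), and 15.1% of its exons lie under Hmgxb3 on the other strand. Cx3cr1, a chemokine receptor of monocytes, changed by 1.53, Cd84, a self-ligand adhesion receptor, by 1.36, and Cd68, a lysosomal glycoprotein, by 0.96. Csf1r was called without Lean d10 replicate 1 and these 3 were not (adjusted p 0.0665, 0.0683 and 0.104). The count was 0 without Lean d7 replicate 2, 1 without DIO d7 replicate 2 and 2 without DIO d10 replicate 1, against 7 or 8 without DIO d7 replicate 3 or Lean d10 replicate 2 or 3.

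General leukocyte genes were positive for all 34 tested (median 1.20), but only 3 passed the test. They were Cd48, an adhesion ligand (1.66), and the signalling genes Lcp2 (1.09) and Nckap1l (0.90). The count was 1 without Lean d10 replicate 1, where Cd48 was called, and 23 without DIO d7 replicate 3. Ptprc, the pan-leukocyte phosphatase CD45, was at 115, 138 and 159.7 CPM in Lean and 75.6, 55.2 and 79.2 CPM in DIO calli on d7, and at 18.3, 56.9 and 64.2 CPM against 85.4, 54.9 and 68.4 CPM on d10. The groups were apart on d7 and overlapped on d10, and the change of 1.55 was not called (SE 0.49, adjusted p = 0.0700).

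Among antigen-presentation genes the edgeR call was for the master regulator. Ciita (chr16:10480059-10528418), the transactivator of MHC class II, was at 8.98, 7.21 and 11.4 CPM in Lean and 1.93, 3.22 and 2.79 CPM in DIO calli on d7, and at 1.38, 3.47 and 3.09 CPM against 10.0, 4.57 and 4.42 CPM on d10. The groups were apart on both days in opposite order. Its change was 3.05 (SE 0.50, adjusted p = 0.00292), and 2.74 without Lean d10 replicate 1 (adjusted p = 0.00531). Of 25 genes tested in the dendritic cell and MHC class II list it was the 1 that rose, and Batf3, a transcription factor of cross-presenting dendritic cells, was the 1 that fell (-1.86, adjusted p = 0.168 without Lean d10 replicate 1). Estimates were positive for 22 of the 25 (median 1.48), and 17 were higher and 1 lower at an unadjusted p below 0.05 in edgeR. DESeq2 called 9 higher and 1 lower of 27 tested. Leaving out Lean d10 replicate 2 gave 9 that rose, and leaving out Lean d10 replicate 3 or DIO d7 replicate 3 gave 5.

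Interferon-response genes gave the most calls of the immune lists. All 35 tested had positive estimates, 13 rose and 0 fell, with a median of 1.37. The list's median change over time was -1.03 in Lean and 0.38 in DIO calli, and 10 of the 35 were called lower in DIO calli on d7.

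Promoters are shown for the pair of called interferon-response genes with the smallest p whose window holds the core of the interferon-stimulated response element, 2 copies of GAAA with any 2 bases between them on either strand, in capitals. STAT and IRF factors bind this element. The RefSeq windows on GRCm38.p6, from 250 bases before to 50 after the start and on the gene's strand, lie at chr11:48871371-48871670 (minus strand) for Irgm1 and at chr4:40239776-40240075 (minus strand) for Ddx58.
Irgm1: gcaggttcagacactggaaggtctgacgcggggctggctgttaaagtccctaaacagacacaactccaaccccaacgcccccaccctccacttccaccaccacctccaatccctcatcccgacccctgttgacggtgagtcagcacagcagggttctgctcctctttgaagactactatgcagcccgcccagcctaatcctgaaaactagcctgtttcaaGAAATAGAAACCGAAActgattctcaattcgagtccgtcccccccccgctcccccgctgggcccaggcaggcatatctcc
Ddx58: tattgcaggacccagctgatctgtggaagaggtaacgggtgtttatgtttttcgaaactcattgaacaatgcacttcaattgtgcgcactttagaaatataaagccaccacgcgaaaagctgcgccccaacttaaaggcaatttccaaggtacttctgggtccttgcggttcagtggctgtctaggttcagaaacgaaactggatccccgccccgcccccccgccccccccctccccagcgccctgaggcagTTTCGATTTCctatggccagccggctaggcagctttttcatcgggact
The Irgm1 window held 2 overlapping copies just before the start, and the Ddx58 window 1 copy just after the start. The core was present in 943 of all 27025 windows (3.49%), in 385 windows of tested genes (3.18%), in 14 of the 440 windows of genes that fell (3.18%) and in 19 of the 229 of genes that rose (8.30%). Of the 13 called interferon-response genes, 11 had a window and 6 of those held the core.

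Irgm1, an interferon-induced GTPase of cell-autonomous defence, was at 44.3, 49 and 40.6 CPM in Lean and 20.4, 25.8 and 21.3 CPM in DIO calli on d7, and at 25.1, 35.0 and 28.4 CPM against 40.9, 35.4 and 31.5 CPM on d10. DIO calli were below Lean calli on d7 and mostly above them on d10, with a change of 1.27 (SE 0.26, adjusted p = 0.00901). Ddx58, which encodes the RNA sensor RIG-I, was at 37.4, 44.1 and 45.4 CPM against 29.4, 30.7 and 29.3 CPM on d7, and at 16.4, 23.1 and 23.7 CPM in Lean against 37.6, 28.5 and 24.3 CPM in DIO calli on d10. Here the order reversed without overlap, and the change was 1.02 (adjusted p = 0.0178, and 0.0665 without Lean d10 replicate 1).

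Irf1 (chr11:53770014-53778374), a transcription factor of the interferon-gamma response, was at 59.8, 77.6 and 58.8 CPM in Lean and 41.0, 36.5 and 49.5 CPM in DIO calli on d7, and at 26.6, 45.6 and 49 CPM against 74.3, 61.8 and 58.7 CPM on d10. All Lean calli were above all DIO calli on d7 and below them on d10, and the change was 1.31 (SE 0.27, adjusted p = 0.00796). Cxcl9, a T cell chemokine that interferon-gamma induces, went from 5.6, 4.22 and 4.37 CPM in Lean and 1.56, 1.17 and 0.996 CPM in DIO calli on d7 to 1.81, 3.34 and 3.86 CPM and 15.7, 9.64 and 4.35 CPM on d10. The groups were apart on both days in opposite order, with a change of 3.63 (adjusted p = 0.0334, and 0.114 without Lean d10 replicate 1).

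The antiviral effectors Oas2 and Oasl2, of the oligoadenylate synthetase family, changed by 2.04 and 1.70, the RNA sensor Ifih1 by 1.40, and Usp18, which removes the modifier ISG15, by 2.05. The neighbouring GTPase genes Irgm2 and Igtp, which overlap on the same strand and can share reads, changed by 1.30 and 1.23. Without Lean d10 replicate 1 the median was 1.21 and 2 of the 35 were called, Irgm1 and Irf1, and 3 were with the 12 libraries fitted alone. Leaving out Lean d7 replicate 2 or DIO d10 replicate 1 gave 3 calls, and leaving out Lean d7 replicate 1, DIO d7 replicate 1 or 2 or DIO d10 replicate 2 gave 5 to 8. In limma voom with quality weights, an analysis chosen after seeing the data, 2 were called.

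**Figure D3:**
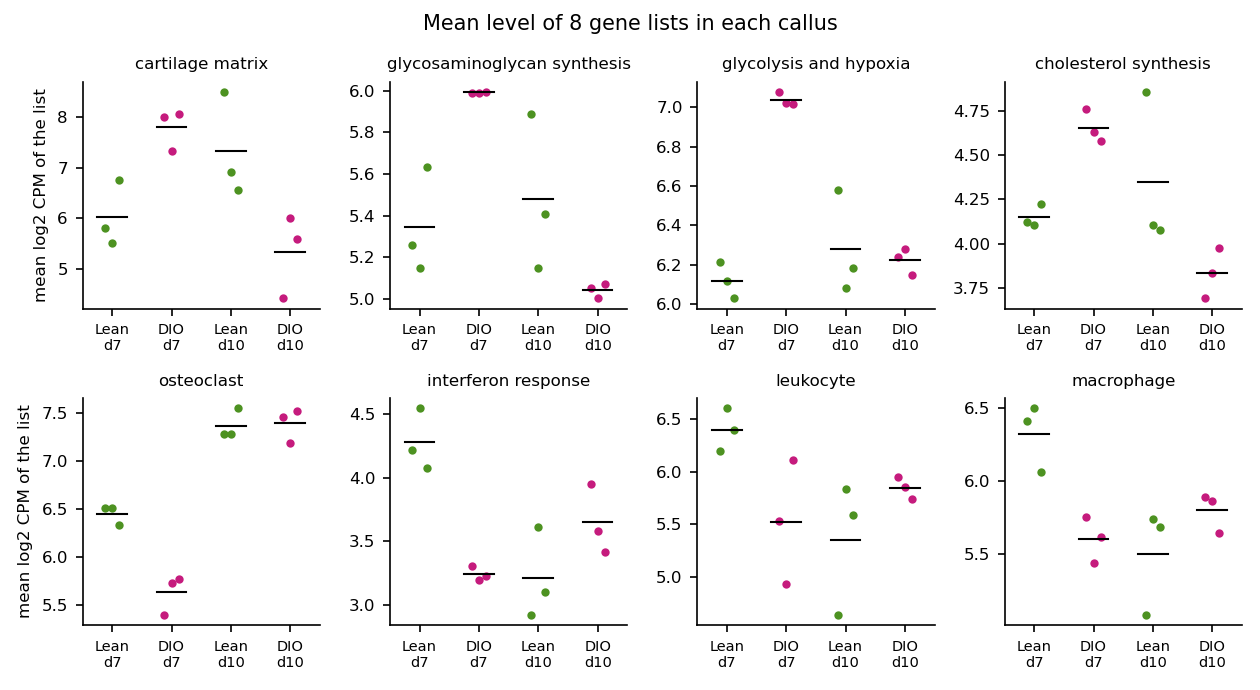
Each panel plots, for 1 of 8 gene lists, the mean log2 CPM of its tested genes on the vertical axis in each of the 12 calli, by group. The group means of the cartilage, glycosaminoglycan, glycolysis and cholesterol lists are highest in DIO calli on d7, although Lean d10 replicate 1 is the highest single callus for cartilage and cholesterol, while the osteoclast list is lowest in DIO calli on d7 and higher in both diets on d10.

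Inflammatory cytokine and chemokine genes did not share the direction of the interferon genes. Of 29 tested, 2 fell and 0 rose (median -0.81), a median that turned to 0.43 without DIO d7 replicate 1. The pair that fell were Ptgs2, the inducible cyclooxygenase (-3.33), and Il11, a cytokine of injured mesenchyme (-4.34), and 0 were called without Lean d10 replicate 1, either of Lean d7 replicates 1 and 2, DIO d7 replicate 2 or either of DIO d10 replicates 1 and 2. Tnf was at 5.83, 2.99 and 4.87 CPM in Lean and 21.4, 1.25 and 1.19 CPM in DIO calli on d7, and at 2.00, 1.47 and 0.713 CPM against 1.22, 1.30 and 0.913 CPM on d10. A single DIO d7 callus, replicate 1, was high and the other two were below all Lean calli, and the change was -1.08 (SE 1.09, adjusted p = 0.583).

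Ccl5, a chemokine of T cells, had a change of 1.76 that was not called (adjusted p = 0.0687), and Cxcl16, a chemokine of activated macrophages and dendritic cells, one of -0.00 (adjusted p = 0.996), with 18.3% of its exons under Zmynd15 on the other strand. Ifng did not pass the filter on low counts. T and NK cell genes gave 0 calls of 27 tested in edgeR (10 at an unadjusted p below 0.05, 3 called by DESeq2 and 2 by limma voom with quality weights), with a median of 1.73. The smallest adjusted p among them was 0.0502, that of Il7r, the interleukin 7 receptor.

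B-lineage genes were positive for all 28 tested (median 2.01) and 2 rose. Blnk, an adaptor of the B cell receptor, changed by 1.55 (adjusted p = 0.0426). Rag2, a subunit of the recombinase of developing lymphocytes, was at 0.292, 0.586 and 0.504 CPM in Lean calli and at 0 in the 3 DIO calli on d7, and at 0, 0.0667 and 0 CPM in Lean against 0.153, 0.652 and 1.05 CPM in DIO calli on d10. It was called (adjusted p = 0.0160), but with DIO d7 at 0 its fitted size depends on the prior count and no fold is given. Summed B-lineage CPM ran from 557 to 698 in Lean d7, 165 to 901 in DIO d7, 138 to 1030.5 in Lean d10 and 769 to 944 in DIO d10 calli, and neither list call held without Lean d10 replicate 1.

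Of 27 adipocyte genes tested 3 rose and 1 fell (median 1.23). Pparg (chr6:115360951-115490399), the master transcription factor of fat cells, which osteoclasts and macrophages also carry, was at 11.5, 12.5 and 8.35 CPM in Lean and 3.68, 3.52 and 5.11 CPM in DIO calli on d7, and at 4.19, 8.54 and 10.2 CPM against 11, 13.8 and 10.9 CPM on d10. The groups were apart on both days in opposite order, with a change of 2.03 (SE 0.41, adjusted p = 0.00748), and 1.73 without Lean d10 replicate 1 (adjusted p = 0.0195).

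Adipoq, the fat cell hormone adiponectin, was at 21.6, 31.1 and 21.7 CPM in Lean and 5.11, 4.32 and 11 CPM in DIO calli on d7, and at 1.38, 9.67 and 11 CPM against 48.6, 22.7 and 20.9 CPM on d10. The order again reversed without overlap, and its change of 3.92 (SE 1.00, adjusted p = 0.0324) became 3.43 (adjusted p = 0.0773) without Lean d10 replicate 1. Lpl, the lipase that unloads plasma triglyceride, changed by 1.87, and Acaca, the first enzyme of fatty acid synthesis, by -0.84. Angptl4, an inhibitor of Lpl that low oxygen and fatty acids induce, was the 1 of 27 fatty acid oxidation and PPAR genes called (-1.98). Without Lean d10 replicate 1, Pparg was the 1 adipocyte gene called, and Lpl, Acaca and Angptl4 were not called (adjusted p 0.106, 0.131 and 0.117). The adipocyte count was also 1 without Lean d7 replicate 2, DIO d7 replicate 2 or DIO d10 replicate 1, and 2 without DIO d10 replicate 2.

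Bone formation genes were largely uncalled. Of 35 tested osteoblast and mineralization genes, 1 rose and 1 fell (median 0.48). Tnn, the matrix protein tenascin-W, fell by 2.08. The list gave 0 calls without Lean d10 replicate 1, and 6 that rose and 2 that fell without Lean d10 replicate 3. Bglap, the osteoblast hormone osteocalcin, was at 251, 372 and 122 CPM in Lean and 36.8, 27.5 and 54.1 CPM in DIO calli on d7, and at 219, 436 and 521 CPM against 421, 577 and 414 CPM on d10. It was below Lean in every DIO callus of d7 and overlapped on d10, with a change of 2.92 that just missed the threshold (SE 0.87, adjusted p = 0.0604).

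Glial, vessel and acute-phase genes each gave a few calls in both directions. Of 19 Schwann cell and myelin genes 4 fell, namely Pmp22, a myelin protein (-1.02), the connexin gene Gjc3 (-5.87), the cadherin Cdh19 (-3.01) and the calcium-binding S100b (-1.58), which chondrocytes also express, and Mbp, myelin basic protein, rose (1.48). Among 26 endothelial genes Flt4, a receptor of lymphatic endothelium (1.24), and Sox17, a factor of arterial endothelium (1.13), rose, and Apln, the tip cell peptide apelin, fell (-1.42). Among 23 complement and acute-phase genes the serpin gene Serpina3g rose (1.82), and Serpina3n, a secreted protease inhibitor (-3.39), and Lbp, which binds bacterial lipopolysaccharide (-1.09), fell. Of these 11 genes only Pmp22, Flt4 and Serpina3n were called without Lean d10 replicate 1.

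**Figure D4:**
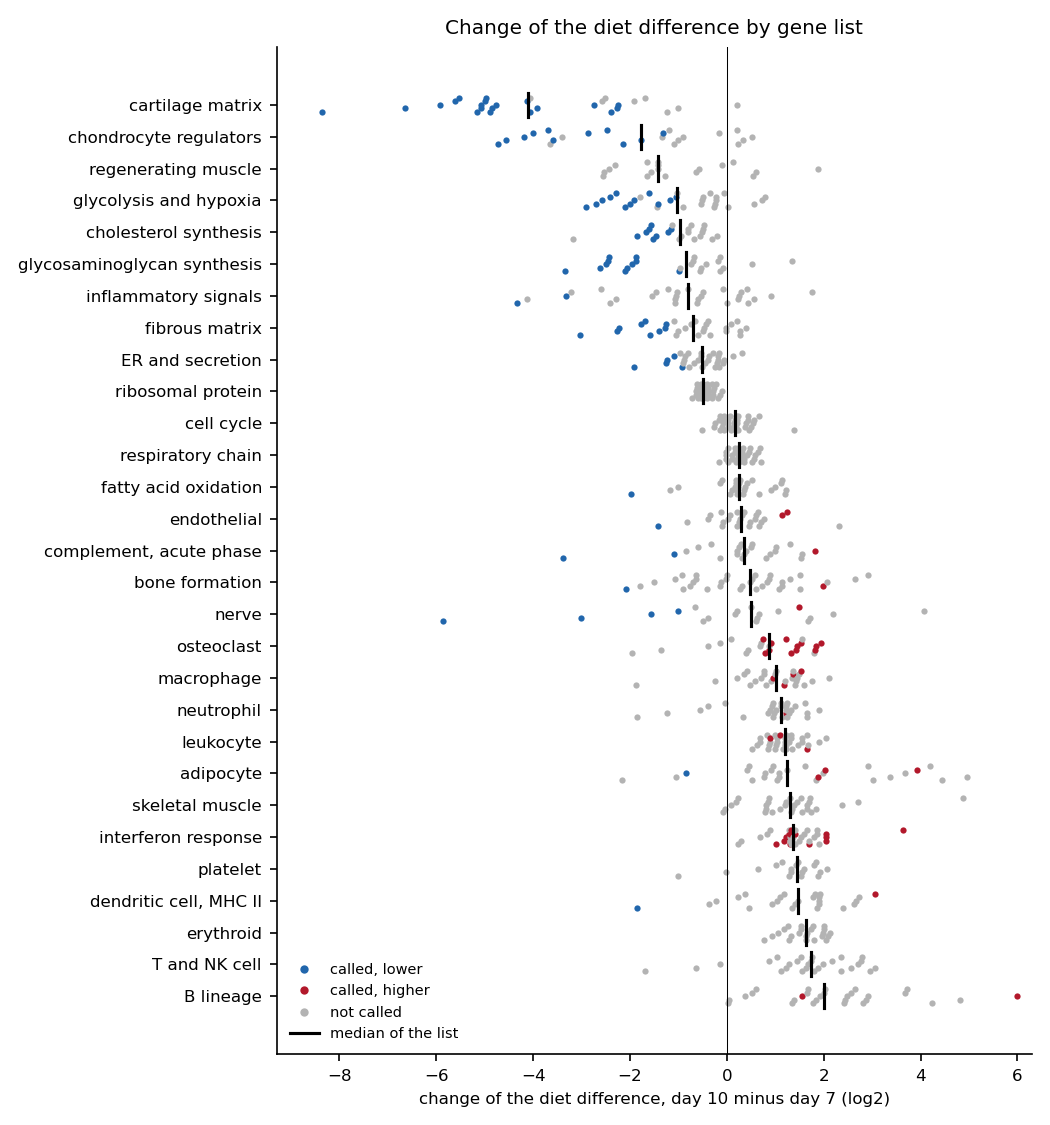
For 29 gene lists, each point is 1 tested gene's log2 change of the diet difference from d7 to d10, with called genes coloured and the list's median marked, and lists are ordered by median. Cartilage matrix (median -4.10) is at one end, and the B-lineage (2.01), T and NK cell (1.73) and erythroid (1.63) lists, with 2, 0 and 0 calls, are at the other.

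Several lists had 0 calls in edgeR. Of 36 cell cycle genes (median 0.16) 1 was at an unadjusted p below 0.05, of 31 respiratory chain genes (median 0.24) 5 were, of 38 ribosomal protein genes (median -0.49) 16 were, and of 18 platelet genes (median 1.44) 4 were. Estimates were positive for 25, 27, 0 and 16 genes in the same order, so all 38 ribosomal protein genes had negative estimates. DESeq2 called 0, 0, 2 and 3 genes of these lists. The lowest adjusted p among them was 0.0506, that of Pf4, a platelet chemokine.

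Marker levels of other cell types varied among the calli, and the erythroid sums of the 4 groups overlapped. The neutrophil sums did too, except that all DIO d10 calli lay below all Lean d7 calli. Of 30 adult skeletal muscle genes 28 had positive changes (median 1.31), and their summed CPM ran from 11153 to 32823 in Lean d7, 13368 to 33224 in DIO d7, 2240 to 27194 in Lean d10 and 35551 to 48219 in DIO d10 calli. In edgeR 0 were called, with 1 at an unadjusted p below 0.05 and 1 call by DESeq2. All 23 erythroid genes had positive changes (median 1.63), of which 0 passed at an unadjusted p below 0.05 or in DESeq2, with sums of 3951 to 8973, 965 to 8837, 626 to 6023 and 2398 to 5693 CPM in the same order. Neutrophil genes gave 1 call, Mmp9, of 28 (median 1.11), with sums of 10902 to 15538, 3513 to 14304, 5014 to 11033 and 7139 to 10808 CPM. The lowest Lean d10 muscle and erythroid sums are those of replicate 1, and without it the medians of the 3 lists were 0.79, 1.14 and 0.60. Adipocyte sums ran from 1100 to 1564, 907 to 1515, 827 to 1405 and 1502 to 2455 CPM, with the lipid droplet genes Plin1 at 0 in 1 DIO d7 library and Cidec at 0 in 1 Lean d10 library. Of 18 genes of regenerating muscle, such as the myogenic factor genes, 0 were called in edgeR (median -1.43), with 1 at an unadjusted p below 0.05 and 0 called by DESeq2, and their sums were 738 to 1907, 1841 to 2323, 352 to 780.1 and 874 to 1173 CPM. The part of these cells in the cartilage, immune and adipocyte results was not tested.

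**Figure D5:**
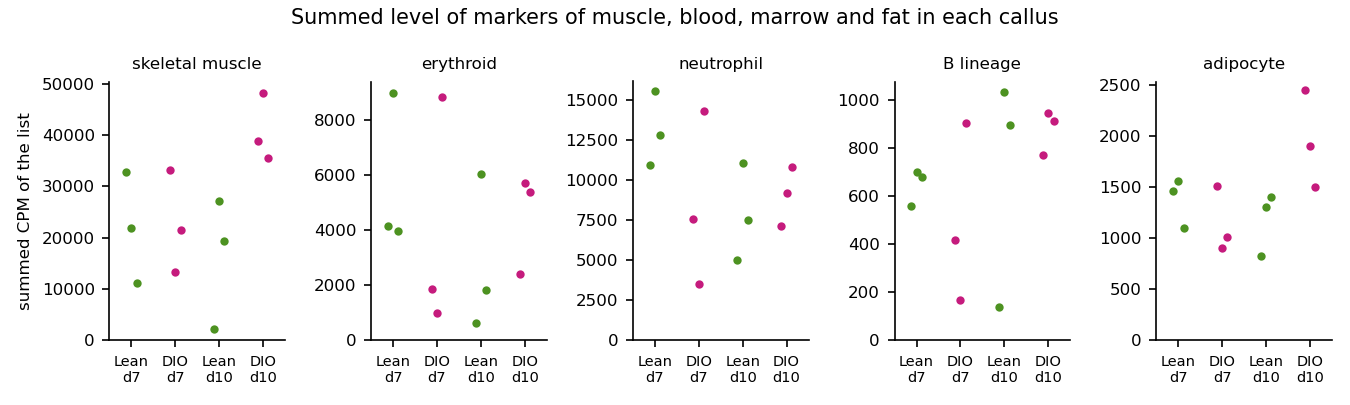
Summed CPM of muscle, erythroid, neutrophil, B-lineage and adipocyte marker genes in each of the 12 calli, by group, on linear axes from 0. The muscle sum is highest in DIO d10 calli (35551 to 48219 CPM) and lowest in Lean d10 replicate 1 (2240 CPM).

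Genes outside the lists that ranked first by p or by size repeated both directions. Kcna5 (chr6:126532551-126535412), a voltage-gated potassium channel, was at 3.09, 3.16 and 3.31 CPM in Lean and 12.2, 13.2 and 21.5 CPM in DIO calli on d7, and at 10.0, 3.07 and 3.15 CPM against 2.14, 1.81 and 1.54 CPM on d10. No values overlapped on either day, in opposite order, with a change of -3.85 (SE 0.54, adjusted p = 0.00275). Nrn1, the neurite growth factor neuritin, changed by -4.22, with 22.3% of its exons under Fars2 on the other strand, Syt8, a synaptotagmin, by -5.10, Mrgprf, an orphan G protein-coupled receptor, by -2.57, and R3hdml, a secreted protein of the CAP family, by -3.49.

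The largest falls at a mean of at least 1 CPM included Adm2, a peptide related to adrenomedullin (-6.28), the parvalbumin-family gene Ocm (-6.19), the MARVEL-domain membrane gene Cmtm5 (-6.15) and Meltf, which encodes melanotransferrin, an iron-binding surface protein of chondrocytes (-5.92). Each was below 1 CPM in at least 1 library except Meltf, whose levels ran from 4.28 to 11.8 CPM in Lean and 50.4 to 90.4 CPM in DIO calli on d7, and from 19.9 to 134 CPM against 7.5 to 9.69 CPM on d10. The Meltf groups were apart on both days in opposite order. Adm2 and Ocm were not called without Lean d10 replicate 1 (adjusted p 0.0591 and 0.0606).

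Among genes that rose, Dapk2, a calmodulin-dependent death kinase, was at 44.3, 70.01 and 43.2 CPM in Lean and 18.2, 12.7 and 27.2 CPM in DIO calli on d7, and at 52.8, 80.0 and 92.1 CPM against 101, 106 and 118 CPM on d10. DIO calli were all below Lean calli on d7 and all above them on d10, and the change was 1.96 (SE 0.32, adjusted p = 0.00292). Atp6v1b2, a proton pump subunit rich in osteoclasts, changed by 1.41, Arsb, a lysosomal enzyme that strips sulfate from glycosaminoglycans, by 1.54 with 32.3% of its exons under Gm26527 on the other strand, Grk3, a receptor kinase, by 1.59, and Il10rb, an interleukin 10 and interferon-lambda receptor chain, by 1.14.

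The largest rises included Sh2d2a, a T cell adaptor (3.56), Mmp12, the macrophage elastase (3.64), and Ifi213, an interferon-induced gene of the Ifi200 family (3.44). Mmp12 and Ifi213 were not called without Lean d10 replicate 1 (adjusted p 0.115 and 0.0566). Coro1b, a coronin that shares exons with Ptprcap on its strand, also ranked among them (3.77), and its rise came from DIO d10 replicates 2 and 3 at 9.42 and 8.36 CPM, while the other 10 libraries lay between 0.440 and 1.22 CPM.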

How the data were processed

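Whole-callus RNA of Lean and DIO mice was sequenced as stranded poly-A libraries. Per the labels and the submitters' processing notes, the authors demultiplexed reads with bcl2fastq, aligned them to GRCm38 with HISAT2 2.1.0 and counted them per gene with HTSeq, whose version and strand setting are not given in the sources used here. Where strand was not used, reads of overlapping genes on opposite strands cannot be told apart. The deposited table holds raw counts of 43629 genes, of which 42462 identifiers matched GENCODE M21 and 27445 had at least 1 count. All its sample columns were matched to samples (0 columns of per-sample values were not used). Groups came from the labels.

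Counts of the 24 libraries of the first 4 time points (8 groups of 3 mice, 16 residual degrees of freedom) were fitted together without covariates in edgeR 4.0.16 (R 4.3.3), with TMM normalization, filterByExpr (17057 genes kept), the quasi-likelihood test and Benjamini-Hochberg adjustment at 0.05 over all genes tested. A call is an adjusted p below 0.05. The 12 libraries of d7 and d10 held 13247122 to 20489678 counts (median 16280550). P-values set each difference against the spread between mice within groups, estimated over all 24 libraries of the 8 groups. Comparisons of the 4 groups share libraries. CPM are counts per 1000000 counts of the TMM-scaled library. No pair of libraries in a group was a duplicate (chi-square per degree of freedom 16.2 to 148 over 12 pairs). The fit was tested on simulated counts of 17057 genes: for this change it found 27 of 100 genes changed by log2 1 and 76 of 100 changed by log2 2, with 5 false calls. These counts had the fit's own spread and the same mean in all groups, with changes put into DIO d10 only. They held no outlying library like Lean d10 replicate 1, so they cannot show the error rate with such a library.

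Genes were named by rule: per direction the 10 of smallest p and the 8 of largest change at a mean of at least 1 CPM, per list the 4 of smallest p and every called gene, and genes the study names. A few called genes are not reported here by name. The comparison and the 29 gene lists were chosen with earlier results of these data known. Lists are described by counts and medians, without a set test. Exon overlaps and gene positions come from GENCODE M21 on GRCm38, and promoter windows from RefSeq on GRCm38.p6. Each result was also computed with upper-quartile or RLE factors, in DESeq2 1.42.0, with other filters, other sets of libraries, a replicate block, a 1.5-fold minimum change, leaving out each mouse, and, chosen after seeing the data, limma 3.58.1 voom with quality weights.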

Additional observations from a re-analysis of the deposited data

Results flagged for a closer look

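Each result here is a difference between the diet contrasts of d7 and d10 that passed the test of that difference itself, in edgeR over 17057 genes. The diet difference was higher on d10 than on d7 for 299 genes and lower for 584. With 3 mice per group no gap test for a single outlying value was made, and calls lost without Lean d10 replicate 1 are named at the end.

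Among the falls, the cartilage genes Ucma (-8.35), Epyc (-6.65), Csgalnact1 (-2.46) and Meltf (-5.92), the matrix gene Fn1 (-3.03), the hypoxia and glycolysis genes Eno1 (-2.0) and Bnip3 (-2.10), the adrenomedullin-related Adm2 (-6.28) and the glial connexin Gjc3 (-5.87) are on the log2 scale. Genes outside the lists were Kcna5 (-3.85), Mrgprf (-2.57), R3hdml (-3.49), Nrn1 (-4.22), Syt8 (-5.10), Ocm (-6.19) and Cmtm5 (-6.15).

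Among the rises, the osteoclast genes Oscar (1.94), Ckb (1.81) and the pump subunit Atp6v1b2 (1.41), the lysosomal Arsb (1.54), the kinases Dapk2 (1.96) and Grk3 (1.59), the immune genes Ciita (3.05), Cxcl9 (3.63), Mmp12 (3.64), Ifi213 (3.44), Sh2d2a (3.56) and Il10rb (1.14), the adipocyte gene Adipoq (3.92) and the coronin gene Coro1b (3.77) are on the same scale. Adm2, Gjc3, Ocm, Cxcl9, Mmp12, Ifi213 and Adipoq were not called without Lean d10 replicate 1 (adjusted p 0.0591, 0.0763, 0.0606, 0.114, 0.115, 0.0566 and 0.0773).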

How the results depend on the processing

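The change of the diet difference was called for 883 genes, for 916 with RLE factors, 866 with upper-quartile factors, 911 with a 1 CPM filter, 658 with no filter and 909 with all 30 libraries. It was called for 1475 by DESeq2, for 224 with the 12 libraries alone, 214 for a 1.5-fold minimum and 553 by limma voom with quality weights. Leaving out 1 library gave 253 to 1692 calls (Lean d10 replicate 1, 253, and replicate 3, 1692; Lean d7 replicate 1, 562, and replicate 2, 283; DIO d7 replicate 2, 420, and replicate 3, 1358; DIO d10 replicate 1, 315), and without DIO d7 replicate 3 the share lower was 54.3% against 66.1%. All 253 calls without Lean d10 replicate 1 were among the 883.

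The d7 difference (660 calls) gave 1193 by DESeq2, 127 with the 12 libraries and 33 to 1376 leaving 1 library out (Lean d7 replicates 1 to 3, 159, 33 and 426; DIO d7, 410, 109 and 1376; Lean d10 replicate 1, 1058). The d10 difference (0) gave 195 by DESeq2 and 0 to 273, with 111 and 273 without Lean d10 replicates 2 and 3 and 1 without DIO d10 replicate 1. Time in Lean calli (1608) gave 2446 by DESeq2, 246 with the 12 libraries and 164 to 2418 (Lean d7 replicates 2 and 3, 474 and 234; Lean d10 replicates 1 and 3, 164 and 2418). Time in DIO calli (2289) gave 1458 with the 12 libraries and 1499 to 2719, the lowest without DIO d7 replicate 2. The 12-library fit has fewer samples for its spread. The cause of the other shifts was not tested.

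List medians with 1 library left out ran from -5.00 to -3.08 for cartilage matrix, -1.94 to -1.25 for chondrocyte regulators (-1.34 with no filter), 0.25 to 0.62 for ossification, -0.91 to -0.34 for fibrous matrix, -1.13 to 0.43 for inflammatory, 1.44 to 3.12 for B-lineage, 1.03 to 1.80 for adipocyte, -1.17 to -0.62 for cholesterol, 1.11 to 3.32 for erythroid, 0.23 to 0.69 for nerve and -0.64 to -0.37 for secretory genes. With voom weights the glycolysis median was -0.81 and the secretory one -0.36. Of 149 named genes past the threshold, 40 stayed past it under all 22 alternatives, 109 fell below it under at least 1 and 0 reversed. With a block for replicate number 826 genes were called, 768 of them among the 883. The numbers do not pair mice: of 18 same-numbered pairs 3 had a correlation of deviations over 0.1, and 1 of 12 libraries correlated best with its own number. With the block 5 cholesterol genes were called against 8, and it moved no other list's or contrast's count by over 1.5 times. In the simulated counts, changes of log2 1 were often missed at this depth and n.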
